A study of Mus musculus with 12 samples.

Results

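Caveolae are flask-shaped pits of the plasma membrane, and 9 of the 28689 genes in the deposited expression table encode proteins of their wall. The 9 genes are *Cav1*, *Cav2*, *Cavin1*, *Cavin2*, *Cavin3*, *Ehd2*, *Ehd4*, *Pacsin2* and *Pacsin3*. They were chosen by name, as the caveolin and cavin genes together with EHD and pacsin genes of the caveola coat. No measured value enters that rule, but earlier results of these data were known when it was set. The cells were mouse lung endothelial cells (MLECs), taken from lung digests with beads against CD31 and then against ICAM2 and expanded in culture. They came from male mice in which both alleles of *Sp1* and of *Sp3* were flanked by loxP sites. The dKO mice also carried *VE-CAD-CreERT2*, a tamoxifen-activated Cre driven by the VE-cadherin promoter, which acts in endothelial cells, and the CTR mice were littermates without the Cre. Mice of both groups received tamoxifen, and each group gave 6 RNA-seq libraries. The sample labels call the control genotype wild type, whereas the study's methods describe floxed littermates without Cre. The study's animals were 6 to 8 weeks old, and its methods call the mice that gave MLECs adult. How many mice each library represents is not given in the sources used here, so p-values measure the spread between libraries, which may be technical. Any cell that was not endothelial when tamoxifen was given would keep both genes.

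Caveolins are hairpin-shaped membrane proteins that form the scaffold of the caveola, and cavins are cytoplasmic proteins that coat it. Caveolin-1 is needed for caveolae in endothelial cells and binds endothelial nitric oxide synthase (eNOS, encoded by *Nos3*), which it holds inactive. Caveolin-2 partners caveolin-1, and cavin-1 is needed for caveola formation. EHD2 and EHD4 are ATPases of the caveola neck, and pacsins, also named syndapins, bend the membrane there through their F-BAR domains. Lung endothelium is among the tissues richest in caveolae. Sp1 and Sp3 are zinc finger transcription factors that bind GC-rich DNA, of which the GC box is the best known form.

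The upstream sequences of 5 genes are shown because they span the observed outcomes. *Cav1*, *Cav2* and *Ehd4* were higher in every dKO library than in any CTR library, *Cavin3* was lower in every dKO library, and *Cavin2* did not pass the test. Of all tested genes, 11.3% were higher and 16.1% were lower in every dKO library. Each sequence is the 250 bases before the start given by its source, which can differ from the first base of the gene given below. It is written 5′ to 3′ on the strand of the gene, with GC boxes (GGGCGG, or CCGCCC where the box lies on the other strand) in capitals. The first 4 are RefSeq promoters of the GRCm38.p6 build, which is not the mm39 build of the expression table, and *Cavin3*, which has no entry there, was read from the GRCm39 genome at its GENCODE start.
Cav1 (chr6:17306085-17306334, plus strand): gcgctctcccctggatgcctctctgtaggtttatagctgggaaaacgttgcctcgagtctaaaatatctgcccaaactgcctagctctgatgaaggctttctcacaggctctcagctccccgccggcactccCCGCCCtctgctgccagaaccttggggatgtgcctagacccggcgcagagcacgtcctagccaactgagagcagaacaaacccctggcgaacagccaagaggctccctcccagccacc
Cav2 (chr6:17280935-17281184, plus strand): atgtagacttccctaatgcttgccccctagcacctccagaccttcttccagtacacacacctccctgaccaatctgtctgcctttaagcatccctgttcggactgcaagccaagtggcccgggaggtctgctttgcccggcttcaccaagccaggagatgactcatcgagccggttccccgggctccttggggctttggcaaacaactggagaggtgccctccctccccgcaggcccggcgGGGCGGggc
Ehd4 (chr2:120154576-120154825, minus strand): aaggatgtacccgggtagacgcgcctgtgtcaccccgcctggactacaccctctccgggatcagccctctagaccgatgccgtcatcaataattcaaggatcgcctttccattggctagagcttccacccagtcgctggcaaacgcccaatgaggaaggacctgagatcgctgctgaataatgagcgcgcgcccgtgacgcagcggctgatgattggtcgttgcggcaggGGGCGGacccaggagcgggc
Cavin2 (chr1:51288876-51289125, plus strand): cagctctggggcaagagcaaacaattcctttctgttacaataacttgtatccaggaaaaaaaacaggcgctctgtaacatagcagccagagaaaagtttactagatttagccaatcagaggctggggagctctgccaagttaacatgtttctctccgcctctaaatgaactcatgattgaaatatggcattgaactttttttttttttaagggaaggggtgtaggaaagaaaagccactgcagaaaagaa
Cavin3 (chr7:105131508-105131757, minus strand): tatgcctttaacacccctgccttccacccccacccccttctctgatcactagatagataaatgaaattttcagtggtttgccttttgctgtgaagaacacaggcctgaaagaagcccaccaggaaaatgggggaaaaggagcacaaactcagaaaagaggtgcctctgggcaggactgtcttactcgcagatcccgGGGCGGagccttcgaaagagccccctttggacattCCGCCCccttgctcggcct

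A GC box on either strand was found in 7 of the 8 members with a RefSeq promoter, *Cavin2* being the member without one. Where RefSeq lists several promoters for a gene, only the one farthest upstream was read. *Cav1*, *Cavin1* and *Pacsin3* have 2 entries each and *Pacsin2* has 3. Of the 9093 RefSeq promoters of tested genes, 60.9% held a GC box. The box started 118 bases before the RefSeq start of *Cav1*, 9 bases before that of *Cav2* and 20 bases before that of *Ehd4*. The window depends on the annotated start. With GENCODE canonical starts on GRCm39, 5 of the 9 members held a GC box against 47.8% of 12375 tested genes, and *Cav1* and *Ehd4* held none. *Cavin3*, the member with lower levels in dKO MLECs, held 2 boxes in that window, starting 54 and 19 bases before the gene start. *Pacsin3*, a member with higher levels, also held 2, starting 47 and 27 bases before the start of its canonical transcript. That start lies downstream of the first base of the gene. The related GT box (GGGTGG, either strand) lay in 2 of 8 RefSeq promoters against 33.1% of all. These matches describe letters in a window and not binding.

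The libraries held between 15523054 and 17938286 fragments. *Sp1* ranged from 19.4 to 23.7 FPKM (fragments per kilobase of gene at a common library depth) in CTR MLECs and from 8.42 to 12.1 FPKM in dKO MLECs, without overlap. *Sp3* ranged from 24.2 to 31.1 FPKM and from 22.5 to 26.9 FPKM, and its log2 difference of −0.14 ± 0.0675 (SE) had a limma adjusted p of 0.0902. With median-of-ratios scaling the *Sp3* difference was −0.05 (limma adjusted p = 0.525). It passed when CTR replicate 6 was left out, at −0.18 (limma adjusted p = 0.0328). The columns of the dKO libraries are named TAM, which was taken to stand for tamoxifen, a drug that both groups received. These columns were assigned to dKO because the CTR columns are named as such. Cell type markers also moved. Of all tested genes, 20.4% were higher and 32.6% were lower in dKO MLECs at a limma adjusted p under 0.05. All 10 endothelial markers were higher, their summed level ranging from 162 to 261 FPKM in CTR and from 299 to 400 FPKM in dKO. *Esam* among them passed narrowly (limma adjusted p = 0.0446), and in only 10 of 20 other settings. All 10 macrophage markers were higher as well, from a sum of 711–1244 FPKM to 2373–5285 FPKM, although *Fcgr1* reached the filter on low values only through the dKO libraries. Of 6 mesothelial markers 5 were higher, with a sum going from 28.8–38.6 FPKM to 66.3–146 FPKM. *Krt19* among the 5 had a limma adjusted p of 0.0403 and passed in only 11 of 20 other settings. Of the 7 fibroblast markers tested, 4 were lower and *Dcn* was higher. *Pdgfra* and *Dpt* did not pass (limma adjusted p = 0.564 and 0.0659), although *Dpt* did in 3 of 19 other settings. The sum over all 8 listed, with *Lum* that was below the filter, fell from 2146–2720 FPKM to 827–1663 FPKM. Most of it came from *Col1a1*, *Col1a2* and *Col3a1* (CTR means 1173, 597.5 and 544 FPKM). No endothelial, fibroblast, macrophage or mesothelial marker was under 0.1 FPKM in every library. Of 7 smooth muscle and pericyte markers tested, *Myh11* and *Rgs5* were higher, the latter reaching the filter in 5 dKO libraries and 1 CTR library. Of 5 alveolar type 2 markers *Abca3* was higher, and 0 of 4 alveolar type 1 markers passed in limma (0 also at an unadjusted p under 0.05 and with limma-voom), although without CTR replicate 4 *Ager* and *Aqp5* did (limma adjusted p = 0.0235 and 0.00254). The 4 adipocyte markers in the table summed to at most 0.595 FPKM. The extraction protocol in the sample labels speaks of retinas, but the 5 retina markers in the table summed to at most 0.392 FPKM in any library. In every library the fibroblast and macrophage sums were above the endothelial sum, although the lists hold different genes. The levels of the members below are therefore those of the whole preparation, named MLECs here, and cannot be assigned to its endothelial cells. In these bulk libraries, more cells of a type and more RNA per cell cannot be told apart, and the part of the cell makeup in the differences below was not tested.

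**Figure D1:**
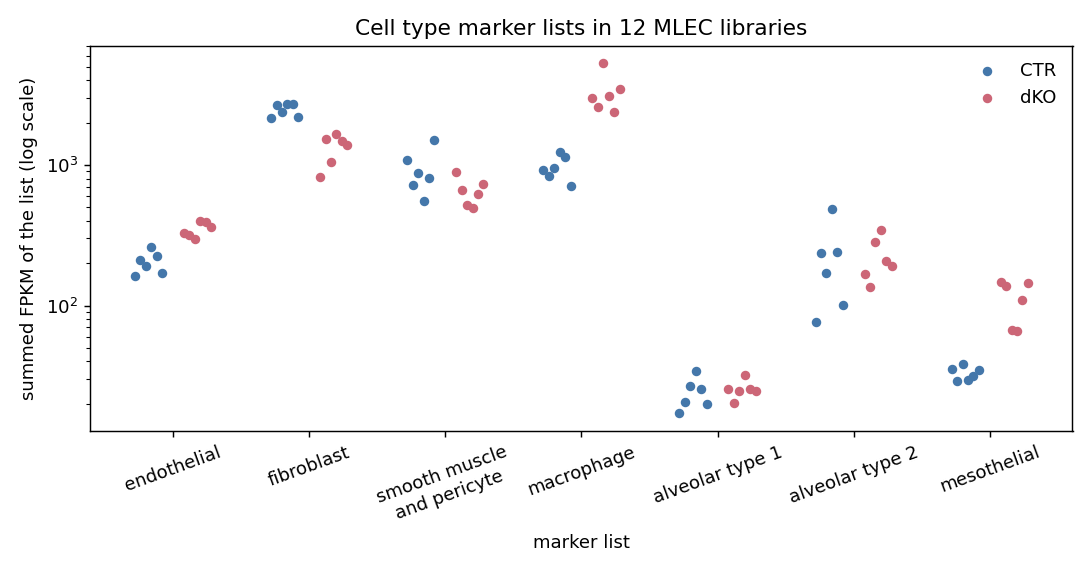
Summed FPKM of 7 cell type marker lists (y axis, log scale) in each of the 6 CTR and 6 dKO libraries, 1 point per library in replicate order from left to right. The endothelial, macrophage and mesothelial sums of the dKO libraries all lie above those of the CTR libraries, and the fibroblast sums all lie below.

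To ask whether the genes of the caveola wall differ between CTR and dKO MLECs as *Cav1* does, log2(FPKM + 1) was compared with limma across the 12467 genes that reached 1 FPKM in 6 or more libraries, and all 9 members were among them. Higher levels in dKO MLECs were found for 6 of the 9 members, *Cav1*, *Cav2*, *Ehd2*, *Ehd4*, *Pacsin2* and *Pacsin3*, at an adjusted p under 0.05, against 20.4% of all tested genes. A lower level was found for 1 member, *Cavin3*, against 32.6% of all tested genes. *Cavin1* and *Cavin2* did not pass. In either direction, 53.1% of tested genes passed this rule, against 7 of the 9 members. Of the genes that passed, 38.5% were higher in dKO MLECs, or 51.7% with median-of-ratios scaling. With a change over 1.5-fold required in addition, *Cav1* and *Ehd4* were higher (8.92% of tested genes) and *Cavin3* was lower (8.98%). No member passed with an absolute log2 difference over 1.5, which 1.98% of tested genes did. The median log2 difference was 0.23 over the 9 members and −0.10 over all tested genes.

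**Figure D2:**
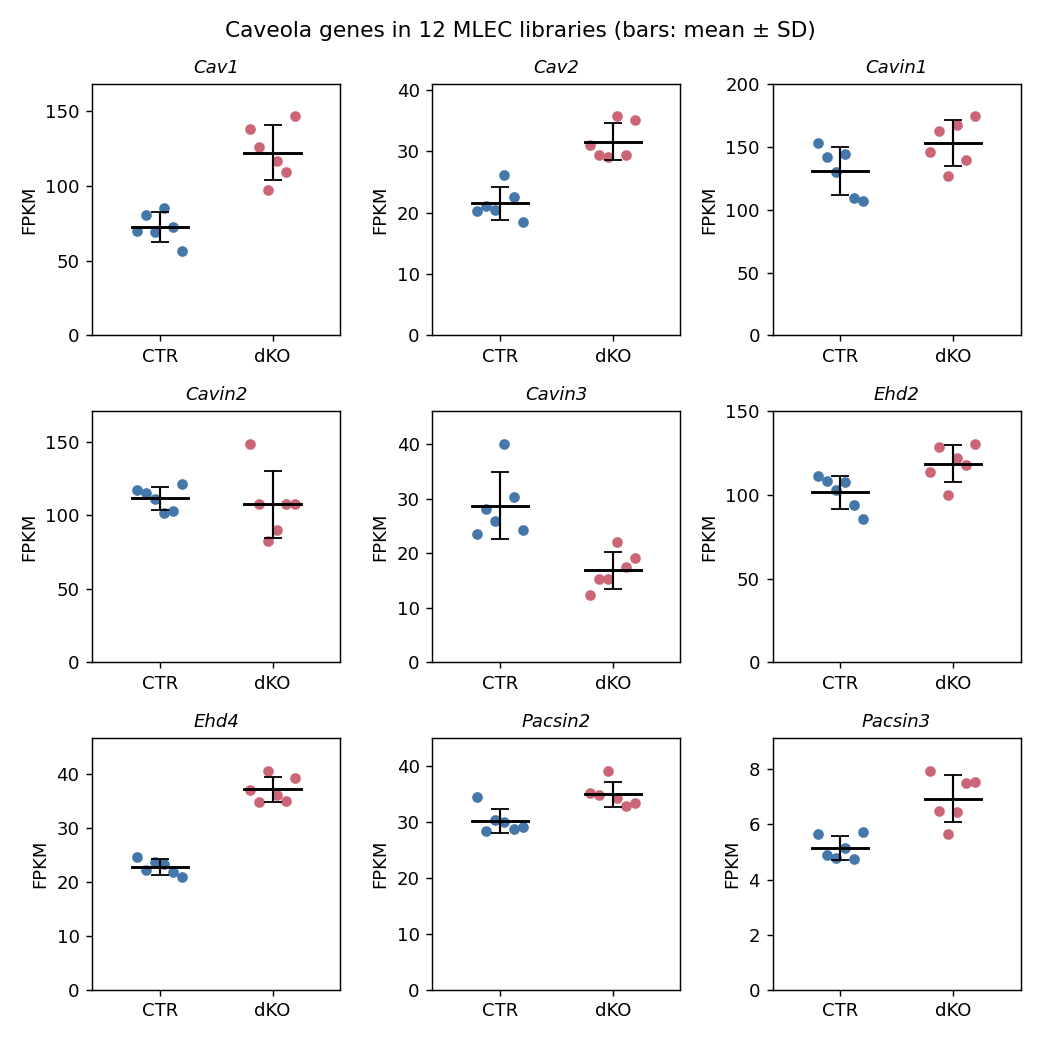
FPKM (y axes, each from 0) of the 9 caveola genes in 6 CTR and 6 dKO libraries, 1 point per library in replicate order from left to right, with bars for the mean ± SD. The groups are apart for *Cav1* (56.3–85.0 against 97.3–146 FPKM), *Cav2*, *Ehd4* and, in the opposite direction, *Cavin3*, and overlap for the other 5 genes. Of all tested genes, 11.3% were higher and 16.1% were lower in every dKO library than in any CTR library.

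*Cav1* (ENSMUSG00000007655, chr6:17306140-17341451 on GRCm39, plus strand, 3 exons) measured 56.3 FPKM in the lowest, 71.3 in the median and 85.0 in the highest CTR library. In dKO MLECs the lowest, median and highest values were 97.3, 121 and 146 FPKM. Every dKO library was above every CTR library, an order that 11.3% of tested genes shared. The mean rose from 72.3 ± 9.97 to 122 ± 18.2 FPKM (SD, n = 6), 1.69 times the CTR mean. The log2 difference was 0.75 ± 0.114 (SE) with a limma adjusted p of 1.64e-04, and it ranged from 0.68 to 0.84 over 20 other settings of the fit. dKO replicate 6 was the highest and dKO replicate 3 the lowest of its group.

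*Cav2* (ENSMUSG00000000058), the partner of *Cav1*, lies on the same strand of chromosome 6 and ends 16262 bases before *Cav1* starts. Its CTR values were 18.5, 20.7 and 26.2 FPKM (lowest, median, highest) and its dKO values 29.1, 30.1 and 35.6 FPKM. These groups did not overlap either, with the lowest dKO library above CTR replicate 4, the highest CTR library for both caveolins. It was higher by 0.54 ± 0.0857 on the log2 scale (limma adjusted p = 2.21e-04). A noncoding antisense gene that spans both caveolin genes, *Gm15581*, stayed at or below 0.0107 FPKM.

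The 3 cavins did not move together. *Cavin1* (ENSMUSG00000004044, chr11:100847559-100861713, minus strand), the cavin without which caveolae do not form, was the most abundant member in both groups. It measured 107, 136 and 153 FPKM (lowest, median, highest) in CTR and 127, 154 and 174 FPKM in dKO MLECs. The groups overlapped, with 3 of 6 dKO libraries above the highest CTR library. The log2 difference of 0.23 ± 0.108 did not pass (limma adjusted p = 0.0946). It passed with median-of-ratios scaling (0.32, adjusted p = 0.0276) and without dKO replicate 3 (0.28, adjusted p = 0.0486).

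*Cavin2* (ENSMUSG00000045954, chr1:51328266-51345710, plus strand), which shapes caveolae with cavin-1, measured 102, 113 and 121 FPKM in CTR MLECs. In dKO MLECs it measured 82.5, 108 and 149 FPKM. The dKO libraries spread on both sides of the CTR range, 2 below it and 1 above it, with a coefficient of variation of 21.3% against 7.04% in CTR. The log2 difference was −0.07 ± 0.118 (limma adjusted p = 0.612), and it was 0.019 with median-of-ratios scaling.

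*Cavin3* (ENSMUSG00000037060, chr7:105128391-105131507, minus strand), a cavin linked to signalling and to the abundance of caveola carriers, went the other way. Its CTR values were 23.5, 27.0 and 40.1 FPKM and its dKO values 12.3, 16.4 and 22.0 FPKM (lowest, median, highest). Every dKO library was below every CTR library, as for 16.1% of tested genes. The mean was 28.7 ± 6.11 FPKM in CTR and 16.9 ± 3.39 FPKM in dKO (SD, n = 6), or 58.9% of CTR. The log2 difference was −0.73 ± 0.145 (limma adjusted p = 0.00105) and stayed between −0.81 and −0.63 in 20 other settings. *Cavin3* made up 10.6% ± 2.20 of the summed cavin FPKM in CTR and 6.15% ± 1.32 in dKO MLECs (SD, n = 6).

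*Ehd4* (ENSMUSG00000027293, chr2:119919654-119985092, minus strand), an ATPase of the caveola neck, varied least of the 9 members within both groups. It measured 20.8, 22.7 and 24.6 FPKM (lowest, median, highest) in CTR and 34.9, 36.5 and 40.6 FPKM in dKO MLECs. The groups were far apart relative to their spread, with coefficients of variation of 6.20% and 6.23%. Its log2 difference was 0.68 ± 0.0600 (limma adjusted p = 3.01e-06).

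*Ehd2* (ENSMUSG00000074364, chr7:15680874-15701629, minus strand), which anchors caveolae at the cell surface, measured 85.7, 105 and 111 FPKM in CTR and 100.02, 120 and 131 FPKM in dKO MLECs. Of the dKO libraries, 5 lay above the CTR range and dKO replicate 3 lay within it. The log2 difference of 0.22 ± 0.0835 passed (limma adjusted p = 0.0382), but only in 10 of 20 other settings. The adjusted p was between 0.0592 and 0.0819 without CTR replicate 3, 5 or 6, or without dKO replicate 2, 4, 5 or 6, each left out alone. It was 0.0895 after rescaling to TPM, 0.0650 without the filter on low values and 0.0582 with the replicate number as a block.

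*Pacsin2* (ENSMUSG00000016664, chr15:83258424-83348819, minus strand), the broadly expressed pacsin, measured 28.5, 29.5 and 34.5 FPKM in CTR and 32.9, 34.6 and 39.2 FPKM in dKO MLECs (lowest, median, highest). The groups overlapped through CTR replicate 1, the highest of its group. Its level was higher by 0.21 ± 0.0626 on the log2 scale (limma adjusted p = 0.0143). An overlapping gene, *Gm5417*, measured between 1.51 and 3.59 FPKM, and how reads shared with it were counted is not given in the sources used here.

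*Pacsin3* (ENSMUSG00000027257, chr2:91086095-91095033, plus strand), the pacsin best known from muscle caveolae, was the least abundant member, with 343 to 568 fragments a library. It measured 4.74, 5.02 and 5.72 FPKM in CTR and 5.67, 6.99 and 7.95 FPKM in dKO MLECs. Only dKO replicate 3 fell within the CTR range. The log2 difference was 0.36 ± 0.0804 (limma adjusted p = 0.00224).

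**Figure D3:**
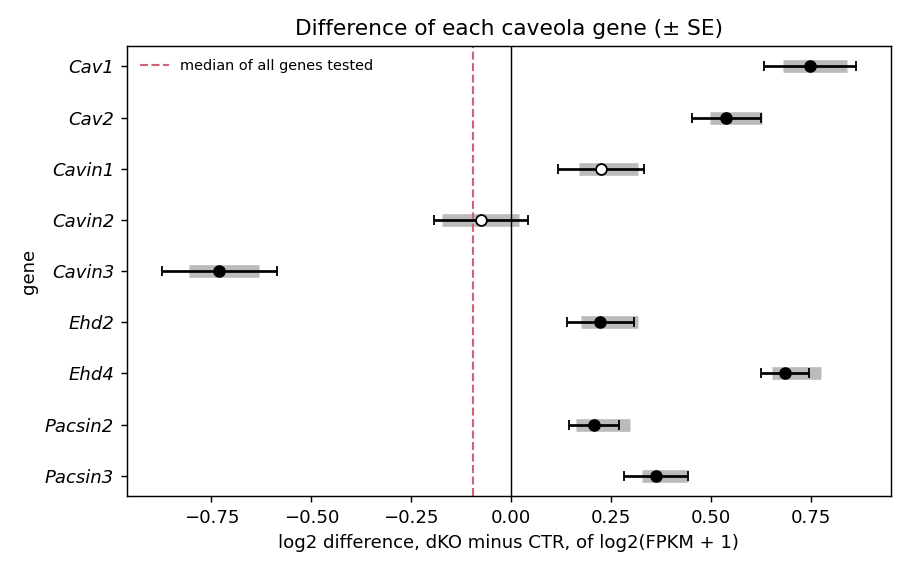
Log2 difference (x axis, dKO minus CTR, of log2(FPKM + 1)) of the 9 caveola genes with its SE. Filled points passed an adjusted p under 0.05, grey bars span 20 other settings, and the dashed line is the median of all tested genes (−0.10). *Cav1*, *Ehd4* and *Cav2* lie farthest to the right and *Cavin3* is the only gene far to the left.

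The order of the levels differed between the groups. FPKM is a level per length of gene, so the order and shares below depend on the gene lengths used. The lengths recovered from the deposited values fell short of the GENCODE exon lengths unequally. They were 3055 against 6891 bases for *Cavin2* and 4007 against 4418 bases for *Ehd4*. The order with GENCODE lengths was not computed. In CTR MLECs the order by mean was *Cavin1*, *Cavin2*, *Ehd2*, *Cav1*, *Pacsin2*, *Cavin3*, *Ehd4*, *Cav2* and *Pacsin3*. The ranges of neighbours overlapped except between *Ehd2* and *Cav1*, *Cav1* and *Pacsin2*, and *Cav2* and *Pacsin3*. In dKO MLECs the order was *Cavin1*, *Cav1*, *Ehd2*, *Cavin2*, *Ehd4*, *Pacsin2*, *Cav2*, *Cavin3* and *Pacsin3*. *Cav1* was below *Cavin1* in 6 of 6 libraries although their ranges overlapped, and above *Ehd2* in 2 of 6. *Ehd2* was above *Cavin2* and *Ehd4* was above *Pacsin2* in 5 of 6 dKO libraries each, with overlapping ranges. *Cavin3* was below *Cav2* in 6 of 6 dKO libraries, without overlap. The 2 caveolins made up 17.8% ± 1.65 of the summed FPKM of the 9 members in CTR and 24.4% ± 1.11 in dKO MLECs, and the cavins 51.7% ± 1.40 and 44.0% ± 1.31 (SD, n = 6).

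Within a group, several members were lowest in the same library. CTR replicate 6 had the lowest level of 5 members, *Cav1*, *Cav2*, *Cavin1*, *Ehd2* and *Ehd4*, and the highest level of *Cavin2* and *Pacsin3*. It also had the largest sum of smooth muscle and pericyte markers (1501 FPKM), of which *Acta2* alone made up 1328 FPKM. dKO replicate 3 had the lowest level of 6 members, *Cav1*, *Cav2*, *Cavin1*, *Cavin2*, *Ehd2* and *Pacsin3*, the highest level of *Ehd4* and *Pacsin2*, and the largest sum of macrophage markers (5285 FPKM). Without dKO replicate 3 the log2 difference of *Cav1* was 0.81 (limma adjusted p = 1.21e-04) and that of *Cavin3* was −0.71 (limma adjusted p = 0.00302).

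To compare *Cav1* with its partners inside each library, the ratio of its FPKM to that of another gene was tested between groups over 10 genes with a two-sided exact permutation test, whose smallest p over 924 splits is 0.00216. Relative to *Cavin3*, *Cav1* rose from a ratio of 2.56 ± 0.331 to 7.51 ± 2.09 (SD, n = 6), a log2 difference of 1.52 ± 0.173 (SE). Relative to *Cavin2* it rose from 0.654 to 1.16, to *Cavin1* from 0.555 to 0.799 and to *Ehd2* from 0.710 to 1.03. For these 4 genes the ratio was higher in every dKO library than in any CTR library (exact permutation p = 0.00216, 0.00541 after Benjamini-Hochberg adjustment over 10 ratios). For *Cavin3* this outcome was fixed by the results above. Every dKO library was above every CTR library for *Cav1* and below it for *Cavin3*, so its ratio is no separate test. The ratio to *Pacsin2* also rose, from 2.40 to 3.52 (exact permutation p = 0.00866, adjusted 0.0173). *Cav1* itself differed by 0.75 and the median tested gene by −0.10 on the log2 scale, so a ratio of *Cav1* to a typical gene would rise as well. The share of all genes with such a rise was not computed, so these ratios do not set the caveola genes apart from other genes.

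The ratio to *Pacsin3* rose from 14.2 to 17.6 (exact permutation p = 0.0216, adjusted 0.0361), but the adjusted p lay between 0.0505 and 0.0722 without CTR replicate 1, 3 or 6 or dKO replicate 1, 2, 3, 4 or 6, each left out alone. The ratio of *Cav1* to *Cav2* was 3.37 ± 0.268 in CTR and 3.88 ± 0.502 in dKO (SD, n = 6, exact permutation p = 0.0606, adjusted 0.0866). The ratio to *Ehd4* differed by 0.05 ± 0.126 on the log2 scale (SE, exact permutation p = 0.721). Relative to the endothelial markers *Pecam1* (CD31) and *Cdh5* (VE-cadherin), the log2 differences were −0.11 ± 0.130 (exact permutation p = 0.426) and 0.09 ± 0.152 (p = 0.569 in the same exact test). *Pecam1* itself was higher in dKO MLECs by 0.84 ± 0.127 and *Cdh5* by 0.66 ± 0.119 on the log2 scale (limma adjusted p = 1.47e-04 and 5.27e-04). The other endothelial markers of the list were higher by between 0.36 (*Robo4*) and 1.26 (*Tie1*), some less and some more than *Cav1* (0.75). Ratios of *Cav1* to them were not tested, and their direction would depend on the marker.

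**Figure D4:**
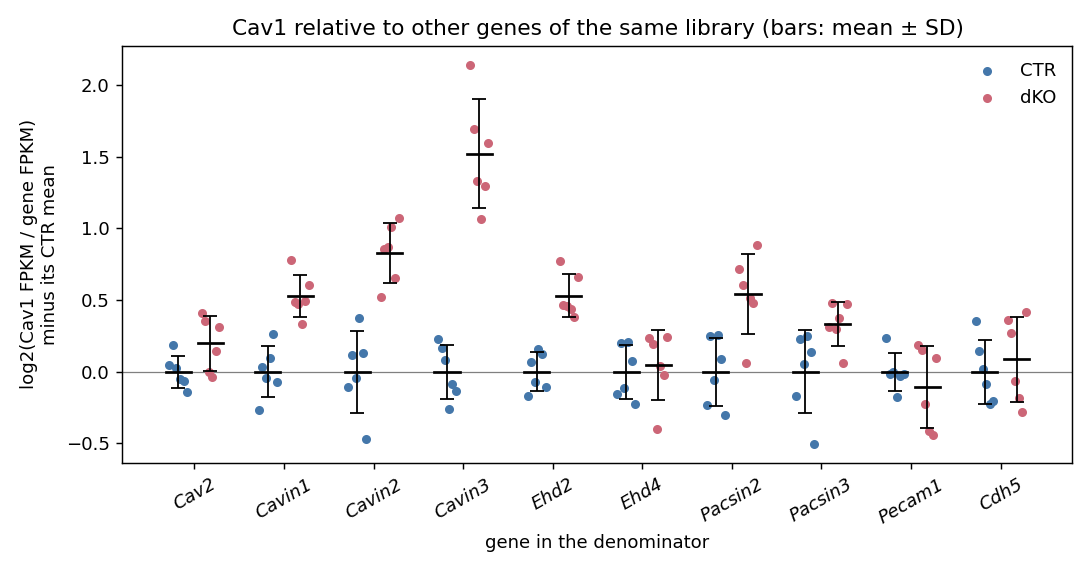
Log2 ratio of *Cav1* FPKM to the FPKM of 10 other genes in the same library (y axis, minus the mean of the CTR libraries), with points for the 6 CTR and 6 dKO libraries and bars for the mean ± SD. The ratio to *Cavin3* stands highest, with a mean of 1.52, while the ratios to *Ehd4*, *Pecam1* and *Cdh5* have means between −0.11 and 0.09.

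Genes with the pattern most like *Cav1* over the 12 libraries were sought by the root mean square difference of log2(FPKM + 1), each gene centred on its CTR mean. The nearest 5 outside the caveola genes were *Gng11* (0.108), *Adrb3* (0.115), *Mrpl34* (0.126), *Ripor1* (0.127) and *Tmem98* (0.130). *Gng11*, a G protein gamma subunit, measured 31.6 to 52.6 FPKM in CTR and 61.5 to 80.5 FPKM in dKO MLECs. *Adrb3*, a beta-adrenergic receptor, was low, at 0.899 ± 0.241 and 2.45 ± 0.449 FPKM (SD, n = 6). Its log2 difference of 0.86 was on the log2(FPKM + 1) scale, which understates changes of low genes. The likeness of *Adrb3* to *Cav1* depends on that scale. Among the members, *Ehd4* (0.201) and *Cav2* (0.205) were nearest to *Cav1* and *Cavin3* (1.08) was farthest.

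Further genes of the caveola were examined in 3 lists, in which 14 of 27 tested genes passed, 9 higher and 5 lower, with a median log2 difference of 0.03. That is no larger a share than the 53.1% of all tested genes that passed (20.4% higher and 32.6% lower). Among relatives of the members, 8 of 10 genes were tested, 3 were higher and 1 was lower, against the same 53.1% of all tested genes in either direction. *Plvap*, which forms the diaphragm of endothelial caveolae, rose from 47.8 to 68.4 FPKM (log2 difference 0.48 ± 0.137, limma adjusted p = 0.0100). *Ror1*, a receptor kinase reported to hold caveolae together, rose from 5.64 to 7.91 FPKM (0.44 ± 0.137, limma adjusted p = 0.0164). The muscle caveolin *Cav3* stayed at 1.83 and 1.89 FPKM (limma adjusted p = 0.765), and *Cavin4* and *Pacsin1* were below the filter. The fission GTPase *Dnm2* and the flotillins *Flot1* and *Flot2*, which mark another kind of membrane domain, did not pass, at log2 differences of −0.10, −0.13 and 0.16.

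The EHD paralogs that are not among the members diverged. *Ehd1* was lower in dKO MLECs (log2 difference −0.66 ± 0.231, limma adjusted p = 0.0289) at 2.30 and 1.16 FPKM, and *Ehd3* was higher (0.29 ± 0.102, limma adjusted p = 0.0283) at 13.2 and 16.6 FPKM. Both calls were lost in some other settings. The adjusted p of *Ehd1* was 0.0578 to 0.0656 without CTR replicate 4 or 6 or dKO replicate 1, 2 or 5, and 0.0651 without the filter. That of *Ehd3* was 0.0543 to 0.0632 without CTR replicate 3 or 6 or dKO replicate 2, 4, 5 or 6, 0.0515 without the filter and 0.0613 after rescaling to TPM.

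Of 11 tested residents and partners of caveolae, 4 were higher and 2 were lower, a share near the 53.1% of all tested genes. *Kdr* (VEGF receptor 2) rose from 4.85 to 9.41 FPKM (log2 difference 0.82 ± 0.133, limma adjusted p = 2.49e-04), without overlap of the groups, as for 11.3% of tested genes. *Cd36*, a fatty acid transporter, rose from 18.5 to 29.5 FPKM (0.69 ± 0.164, limma adjusted p = 0.00373). *Trpv4*, a calcium channel of endothelial cells, measured 0.360 to 0.983 FPKM in CTR and 1.12 to 1.89 FPKM in dKO libraries. It reached the filter on low values only through the dKO libraries, so it had to differ, and its difference is given without a test although it is among the 4. The lower genes were *Insr*, the insulin receptor (−0.29), and the channel *Trpc1* (−0.30), and *Insr* did not pass with median-of-ratios scaling (adjusted p = 0.0873).

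*Nos3*, the enzyme that caveolin-1 binds, was low in these libraries. It measured 1.24, 1.45 and 2.52 FPKM (lowest, median, highest) in CTR and 1.43, 2.38 and 2.81 FPKM in dKO MLECs, and only 2 dKO libraries lay above the CTR range. The log2 difference of 0.34 ± 0.127 passed (limma adjusted p = 0.0377), and the adjusted p was 0.0544 to 0.0809 without CTR replicate 1, 2, 3, 5 or 6 or dKO replicate 2, 3, 4, 5 or 6. It was 0.0818 without the filter and 0.0566 after rescaling to TPM. Among 8 regulators of eNOS, 2 were higher and 2 were lower, no larger a share than the 53.1% of all tested genes that passed. *Nostrin*, which traffics eNOS from the membrane, rose from 4.41 to 7.56 FPKM (0.67 ± 0.112, limma adjusted p = 3.01e-04). *Nosip*, an eNOS-interacting protein, fell from 16.3 to 12.7 FPKM (−0.34 ± 0.0643, limma adjusted p = 8.13e-04). *Hsp90ab1* was also lower (−0.29), except with median-of-ratios scaling (adjusted p = 0.0718) or without the filter (0.0554).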

How the data were processed

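RNA of cultured MLECs was sequenced in 6 CTR and 6 dKO libraries. The authors checked and trimmed the reads, aligned them to mm39 with STAR in 2 rounds, the second on unique alignments only, and deposited FPKM values for 28689 genes. The submitters' processing notes name Bowtie2 2.2.3, HISAT2 2.1.0, TopHat2 and DESeq2 instead. The counting program, annotation and use of strand are not given in the sources used here. The paper's methods and the sample labels also name different library kits.

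Symbols, gene positions and exon numbers came from GENCODE vM39 on GRCm39, which matched 27706 of the identifiers. Genes that reached 1 FPKM in 6 or more libraries were tested on log2(FPKM + 1), a scale that understates changes of low genes, with limma 3.58.1 (lmFit and eBayes with a trend, R 4.3.3) and Benjamini-Hochberg adjustment over all 12467 genes. Called means an adjusted p under 0.05. Whole fragments were recovered for 100% of genes at a tolerance of 0.02 by searching for library totals and whole gene lengths, and they gave the library totals and 1 alternative, limma-voom, chosen after seeing the data, which called 6609 genes. The recovered lengths of all 9 members are shorter than the GENCODE exon lengths, and the reason was not tested. No pair of libraries within a group repeated another (lowest chi-square per degree of freedom 12.2 over 30 pairs). Ratios were tested with exact permutation tests (SciPy 1.17.1). Near-identical copies were sought with BLAST 2.17.0 at 95% identity over at least 150 bases, and the hits were noncoding or unclassified genes that overlap the members. Scripts ran in Python 3.11.15 with pandas 2.3.3, NumPy 2.4.6, Matplotlib 3.10.9 and numba 0.67.0. The fit was tested on simulated data in which a small part of the genes changed, equally often in each direction. That setting does not cover the wide and uneven changes of these libraries.

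The members and gene lists were chosen with earlier results of these data known. Named genes are the 9 members, *Sp1*, *Sp3*, *Nos3*, the relatives, the 3 genes with the largest absolute log2 difference in each list and the 5 genes most like *Cav1*, except 1 gene that is not reported here. *Insr*, *Trpc1*, *Hsp90ab1*, *Dcn*, *Fcgr1*, *Myh11*, *Rgs5*, *Abca3*, *Ager*, *Aqp5*, *Gm15581* and *Gm5417* were named after their values were seen. So were *Robo4*, *Tie1*, *Esam*, *Krt19*, *Acta2*, *Col1a1*, *Col1a2*, *Col3a1*, *Pdgfra*, *Dpt* and *Lum*. Alternatives were a pseudocount of 0.1, no filter, a filter of 5 FPKM, rescaling to TPM, median-of-ratios scaling, a block for the replicate number, robust eBayes and omission of each library in turn.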

Additional observations from a re-analysis of the deposited data

Results flagged for a closer look

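Single libraries were compared with the rest of their group for the members, *Sp1*, *Sp3*, *Nos3*, the 10 ratios and library totals, 50 groups of 6 libraries in all, and chance marks about 1 in 20 such groups. A library stood apart in 3 of the 50. *Pacsin2* measured 34.5 FPKM in CTR replicate 1 against 28.5 to 30.5 FPKM in the other CTR libraries, and 39.2 FPKM in dKO replicate 3 against 32.9 to 35.2 FPKM in the other dKO libraries. *Nos3* measured 2.52 FPKM in CTR replicate 4 against 1.24 to 1.68 FPKM in the other CTR libraries. Without it the groups would still overlap, through dKO replicate 1 at 1.43 FPKM.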

How the results depend on the processing

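Across 20 other settings of the fit, *Cav1*, *Cav2*, *Cavin3*, *Ehd4*, *Pacsin2* and *Pacsin3* kept their direction and their side of the threshold. The number of members past an adjusted p of 0.05 was 6 to 8 with any library left out and 6 to 8 otherwise, and that past 1.5-fold was 3 to 4. *Cavin2* changed sign with median-of-ratios scaling, to 0.019, and did not pass in any setting. That scaling moved the median of all genes from −0.10 to −0.02, and TPM moved it to −0.16, so directions of small differences depend on it. With the replicate number as a block, 6955 genes were called in place of 6614, and the 6 ratios that passed became 0 of 10, since the smallest paired p, 0.0312 over 64 sign changes, gives at best 0.0625 after adjustment here. The numbers are not known to pair mice: same-numbered libraries deviated together with correlations from −0.11 to 0.57, and not every library correlated best with its own number. With any library left out, 5 to 6 ratios passed. Members lost or gained elsewhere, *Ehd2* and *Cavin1*, are given beside their results, and the cause was not tested. No member is near the depth limit, the lowest fragment number being 317.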
